A study of Homo sapiens with 3 samples.

Results

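The 9 genes described here, ARC, RASD1, NPAS4, HOMER1, C11orf96, BDNF, NPTX2, CREM and SIK1, were listed as activity-induced genes of neurons. All were examined in an epithelial cancer line. They were chosen by their log2 differences on these same arrays, with earlier results in view, so their levels are given as a description and none was tested. They did not move as 1 group. All 9 had a matched probe, 11 probes in all, among 19699 named genes and 34041 probes used. PANC-1 is an established human pancreatic cancer cell line of epithelial origin. It was cultured without drug as control, with cantharidin (CAN), or with okadaic acid (OA), each agent being labelled 20 µM for 24 h. Both agents inhibit protein phosphatase 2A (PP2A), a serine/threonine phosphatase that opposes many kinase pathways, and the series asked what such inhibition does in pancreatic cancer cells. Total RNA from each culture was labelled with Cy3 and hybridised to 1 Agilent array, so each group is 1 array of 1 line, without any replicate check. The labels do not say whether control cells received the solvent of the agents.

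Immediate early genes are genes whose transcription starts within minutes of a stimulus from factors already present in the cell. In neurons, synaptic activity raises calcium and cyclic AMP, kinases phosphorylate CREB and the partners of serum response factor, and genes such as ARC, NPAS4, BDNF and CREM are transcribed. Several of their products then act at the synapse, while others feed back on the same transcription factors. Phosphatases, PP2A among them, reverse the phosphorylation steps, and many of these genes also respond to growth factors or stress in cells that are not neurons.

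Whether the cells looked neuronal was checked with marker genes. Of 8 epithelial markers, 8 were well above background in control and 7 under each agent, where the cadherin gene CDH1 was not. Of 13 neuronal markers, 9 were well above background in control and 7 under each agent. TUBB3, SLC17A7, GAD1, SNAP25, SYP, SYN1 and NEFL were well above background on all 3 arrays. The neuronal nuclear protein gene RBFOX3, the neurofilament gene NEFM, STMN2 and the glutamate receptor subunit GRIN1 were below background on all 3 arrays. MAP2 and ELAVL4 were above it in control but not after treatment. The summed neuronal signal, in multiples of the array's 75th percentile, was 57.4 in control, 68.9 under CAN and 37.6 under OA, most of it from TUBB3, a tubulin that many cancer lines carry. Of 8 markers of neuroendocrine cells, 4 were well above background in control and 5 under each agent, and of 8 markers of fibroblasts and other stromal or blood cells, 4 were in control, 5 under CAN and 4 under OA. Every neuronal marker well above background on any array was therefore already so without treatment, and the part of these markers in the differences below was not tested.

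Levels are given as processed spot intensity, the scanner's fluorescence after its own background subtraction. Differences are log2 differences after dividing by the 75th percentile of intensity on the same array, which was 784 in control, 713 under CAN and 936 under OA. A gene was called higher or lower where its scaled levels differed by at least 1.5-fold. It was compared only if its probe was flagged well above background in control, in the treated array, or in both. Where 1 side was below background the fold is a limit, written as at least, with that side set to the array's detection floor. The floor is the dimmest signal still flagged well above background. Where the unflagged reading lay above the floor, the fold is the measured difference and not a limit. Probes differ in brightness for the same amount of RNA, so no level is set against that of another gene. Spot noise is given as the SD expected for a log2 difference from spots of like intensity on the same arrays, and it holds neither culture nor hybridisation error.

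Among the 9 genes, the largest responses were those of ARC, RASD1 and C11orf96. All 3 were higher under both agents by more than an order of magnitude, and each was higher under OA than under CAN. ARC encodes a cytoskeleton-associated protein of dendritic spines that derives from a retrotransposon Gag protein and regulates removal of glutamate receptors from the synapse. Its probe read 94.6 in control, 9991 under CAN and 78834 under OA. The control signal was 2.70 times the detection floor of that array, taken as the dimmest signal still flagged well above background, so ARC was near the limit of detection without treatment. After scaling, ARC was 116-fold higher under CAN (log2 difference 6.86) and 698-fold higher under OA (log2 difference 9.45), with a spot noise of 0.16 for both differences. With normexp background correction, an alternative that raises dim signals, these log2 differences were 6.01 and 8.56. In bulk RNA, fewer cells carrying a transcript and less of it per cell cannot be told apart. ARC ranked highest of the 14900 genes measured on both the control and CAN arrays, and second of 14428 on the control and OA arrays. Genes below background on either array were not ranked. The early growth response gene EGR4, below background in control, was higher by a log2 limit of at least 10.47 under OA, above the value of ARC. The direct comparison put ARC 6.01-fold higher under OA than under CAN, a log2 difference of 2.59 with a spot noise of 0.10.

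RASD1 encodes a small GTPase of the Ras superfamily, first described as induced by dexamethasone, which binds the adaptor of neuronal nitric oxide synthase. Its probe was printed at 10 spots on every array, which shows the technical spread directly. In control the spots lay between 703 and 779, under CAN between 25170 and 30595, and under OA between 259770 and 341968. The 3 sets of spots did not overlap, and the coefficient of variation within an array was 2.83%, 6.80% and 7.93% in the same order. These spots are repeat readings of 1 RNA sample and not replicates of a culture. The mean intensities of 744, 27678 and 295612 gave a level 40.9-fold higher under CAN (log2 difference 5.36) and 333-fold higher under OA (log2 difference 8.38), with a spot noise of 0.03 for means of 10 spots. The level under OA exceeded that under CAN 8.13-fold, a log2 difference of 3.02, and no spot on any array was marked as saturated. RASD1 ranked 12 of 14900 under CAN and 3 of 14428 under OA.

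**Figure D1:**
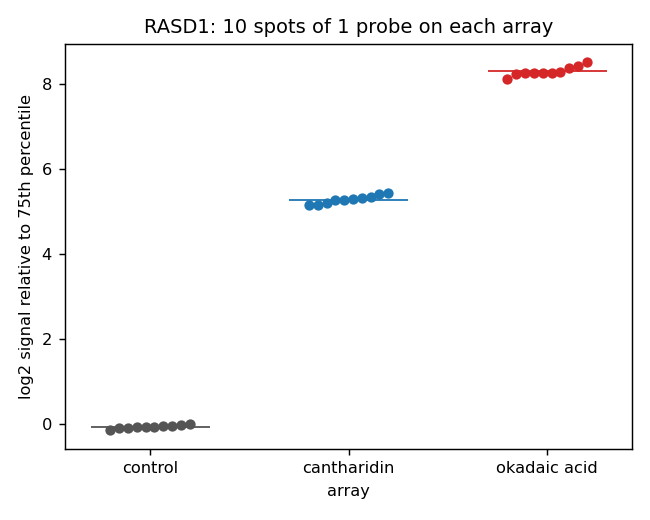
Each point is 1 of the 10 spots of the RASD1 probe on an array (x axis), and the y axis is log2 intensity relative to the array's 75th percentile; the horizontal line is the mean of the spots. Spots within an array lie close together, and the 3 arrays do not overlap.

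C11orf96 followed the same order of arrays. Its probe read 811 in control, 45381 under CAN and 198179 under OA. The gene was 61.6-fold higher under CAN (log2 difference 5.94, spot noise 0.08) and 205-fold higher under OA (log2 difference 7.68, spot noise 0.08). The direct comparison gave 3.32-fold more under OA than under CAN. It ranked 9 of 14900 and 4 of 14428. For comparison with the whole array, 423 of 16644 genes, 2.54%, were at least 10-fold higher under CAN, and 320 of 16166, 1.98%, under OA. Both differences from control share the control array, so a control value that was off would move both in the same way.

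Upstream sequences of the genes are shown next, since CREB binds the cyclic AMP response element, whose core can be read in them. The windows hold the 250 bases before the transcript start of the gene, 5′ to 3′ along the gene, from RefSeq on GRCh38.p14. Capitals mark the core TGACG or its reverse complement CGTCA, searched on both strands. RASD1, the strongly responding gene with a window in the table, lies on the minus strand, chr17:17496396-17496645, and holds 2 cores. Their first bases lie 133 and 78 bases before the start.
RASD1: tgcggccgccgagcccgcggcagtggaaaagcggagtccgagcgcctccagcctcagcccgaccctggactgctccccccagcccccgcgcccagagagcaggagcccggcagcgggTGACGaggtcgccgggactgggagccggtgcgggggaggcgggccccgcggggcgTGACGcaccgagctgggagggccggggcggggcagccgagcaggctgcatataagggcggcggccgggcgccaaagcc
NPAS4 (plus strand, chr11:66420754-66421003) and SIK1 (minus strand, chr21:43427132-43427381), which were lower under both agents, are shown beside it. The first of the NPAS4 windows has 2 cores, 140 and 130 bases before the start, and SIK1 has 3, at 217, 137 and 126 bases.
NPAS4: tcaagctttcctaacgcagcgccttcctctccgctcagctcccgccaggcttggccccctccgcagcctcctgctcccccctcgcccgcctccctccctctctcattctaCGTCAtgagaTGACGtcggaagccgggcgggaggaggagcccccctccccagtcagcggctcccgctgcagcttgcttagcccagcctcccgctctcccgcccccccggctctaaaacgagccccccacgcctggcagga
SIK1: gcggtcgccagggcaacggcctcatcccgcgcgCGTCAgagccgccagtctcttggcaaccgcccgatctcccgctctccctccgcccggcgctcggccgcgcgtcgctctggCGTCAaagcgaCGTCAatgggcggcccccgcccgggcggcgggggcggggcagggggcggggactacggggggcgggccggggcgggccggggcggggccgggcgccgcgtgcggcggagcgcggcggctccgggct
NPTX2 (plus strand, chr7:98617035-98617284) has 1 core, 103 bases before the start, and HOMER1 (minus strand, chr5:79514135-79514384) has none. NPTX2 was past the threshold under OA alone and HOMER1 stayed within the threshold, as described below.
NPTX2: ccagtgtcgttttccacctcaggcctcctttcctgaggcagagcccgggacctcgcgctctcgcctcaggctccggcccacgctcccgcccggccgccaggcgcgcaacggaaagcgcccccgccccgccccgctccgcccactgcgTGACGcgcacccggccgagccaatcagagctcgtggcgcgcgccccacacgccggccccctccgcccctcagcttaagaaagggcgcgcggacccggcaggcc
HOMER1: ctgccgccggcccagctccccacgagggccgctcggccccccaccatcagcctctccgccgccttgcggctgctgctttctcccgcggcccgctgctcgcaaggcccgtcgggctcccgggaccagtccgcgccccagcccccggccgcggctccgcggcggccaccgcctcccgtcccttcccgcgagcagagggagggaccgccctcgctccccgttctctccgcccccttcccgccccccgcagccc
CREM has several starts. Only 1 of its 7 windows holds the full palindrome TGACGTCA, which is a pair of overlapping cores, 1 on each strand, beginning 50 bases before that start. The 30 bases around it are on the plus strand, chr10:35195841-35195870, with the palindrome in capitals.
CREM: gagctgcacatTGACGTCAgctccgagtca

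Among the 18 windows of 7 of the genes, 8 held a core, from 6 genes, and CREM had it in 2 of its 7 windows and BDNF in 1 of 5. Of all 35116 windows of this length outside chromosome 8, 21.22% held the core and 1.646% the full palindrome. The AP-1 motif TGANTCA (6.573% of all windows) and the serum response factor CArG box (1.159%) were absent from all 18. TATAAA (6.803%) was absent from all 18 when read along the gene strand alone. Cores were thus present in windows of genes that were much higher (RASD1), lower (NPAS4 and SIK1) and past the threshold under OA alone (NPTX2). A match describes these letters only, and not a bound site.

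**Figure D2:**
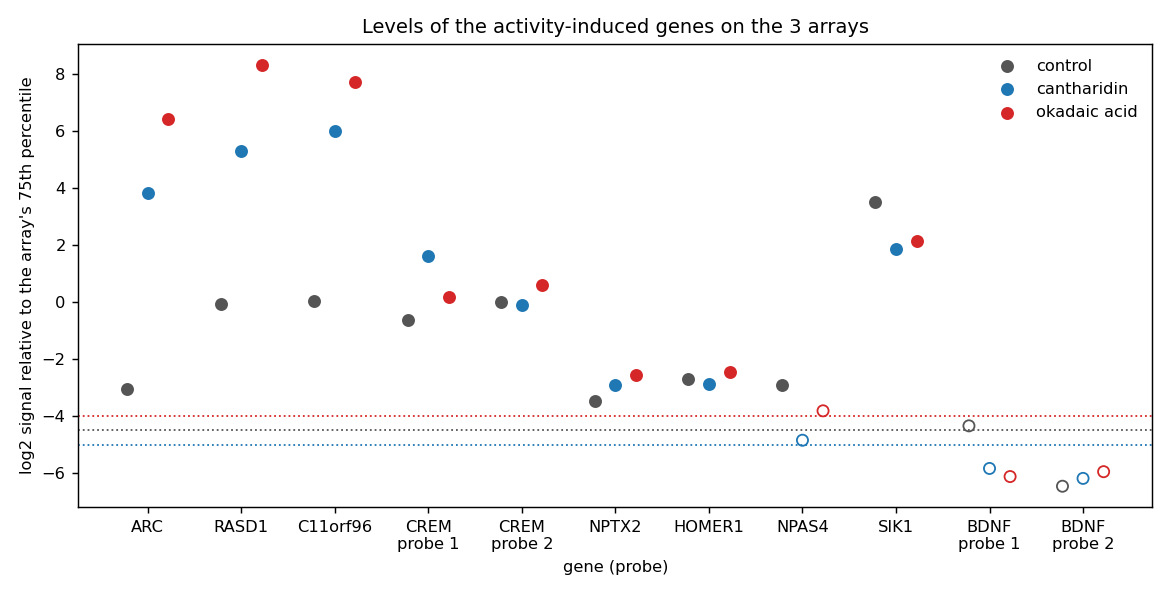
The y axis is log2 intensity relative to the array's 75th percentile for each probe of the 9 genes (x axis), with control in grey, cantharidin in blue and okadaic acid in red. Open circles are signals not well above background, and dotted lines mark the detection floor of each array; ARC, RASD1 and C11orf96 climb from control to cantharidin to okadaic acid, while SIK1 falls and both BDNF probes are drawn as open circles throughout.

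Among the transcription regulators, CREM and NPAS4 went different ways. CREM encodes a relative of CREB, and a short product from an internal promoter, ICER, represses genes with cyclic AMP response elements. By the probe with the higher mean over the 3 arrays it was the only one of the 7 genes compared between the agents that was called higher under CAN than under OA. That probe (NM_001881) read 503 in control, 2177 under CAN and 1060 under OA, and had the higher mean through the CAN array alone. CREM was thus 4.77-fold higher under CAN (log2 difference 2.25, spot noise 0.10) and 1.77-fold higher under OA (log2 difference 0.82, spot noise 0.08), and the direct comparison was 2.70-fold lower under OA. The other CREM probe (NM_183013) read 789, 656 and 1397. It differed by 1.09-fold from control under CAN, and was 1.48-fold higher under OA and 1.62-fold higher under OA than under CAN. The probes thus disagree on which agent gave the higher level. They are matched to different transcripts of the gene, and which isoforms each one detects was not analysed here.

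NPAS4, a bHLH-PAS transcription factor that shapes inhibitory synapses in neurons, was detected without treatment and not well above background after it. Its probe read 105 in control, 24.7 under CAN and 66.4 under OA. Control was well above background, at 3.01 times the floor. Neither treated array was, although their readings lay at 1.13 and 1.14 times the floor. NPAS4 thus read 3.86-fold lower under CAN and 1.89-fold lower under OA, which are measured differences and not limits. No fold is given between the agents. With normexp background correction the log2 differences of -1.95 and -0.92 shrank to -0.85 and -0.57, the latter short of the threshold. With a spot noise of 0.39 and 0.27 on the log2 scale, these were the least precise of the called differences.

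SIK1 encodes a salt-inducible kinase that is itself a CREB target and restrains CREB by phosphorylating its CRTC coactivators. Its probe read 8909 in control, 2586 under CAN and 4125 under OA. SIK1 was 3.13-fold lower under CAN (log2 difference -1.65, spot noise 0.09) and 2.58-fold lower under OA (log2 difference -1.37, spot noise 0.07). The agents differed by 1.21-fold, within the threshold. The genome holds a nearly identical copy, SIK1B, and the signal may include its transcripts. SIK1 thus had a clear signal on every array and was lower on both treated ones, opposite to ARC and RASD1.

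Of the genes for synaptic and secreted products other than ARC, NPTX2 was higher under OA, HOMER1 stayed within the threshold and BDNF could not be read. NPTX2 encodes a secreted pentraxin that clusters glutamate receptors. Its probe read 70.0 in control, 94.0 under CAN and 159 under OA, which is 2.00, 4.29 and 2.75 times the floor of the same arrays. NPTX2 was 1.91-fold higher under OA (log2 difference 0.93, spot noise 0.23), past the threshold, a call that was lost with normexp background correction (0.43) and at 2-fold. Its 1.48-fold difference under CAN was just short of it.

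HOMER1 encodes a postsynaptic scaffold, of which a short activity-induced form uncouples metabotropic glutamate receptors. Its probe read 121 in control, 95.9 under CAN and 170 under OA. It was 1.14-fold lower under CAN and 1.18-fold higher under OA, both within the threshold. Which of the HOMER1 forms the probe detects was not analysed here.

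BDNF encodes brain-derived neurotrophic factor, the ligand of the receptor TrkB. One of its 2 probes read 38.6, 12.5 and 13.4 and the other 8.90, 9.79 and 15.1 on the control, CAN and OA arrays. Neither was well above background on any array, so BDNF was not compared, which says that no signal was detected and not that the transcript was absent.

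Counted together, 4 of the 8 genes compared (ARC, RASD1, C11orf96 and CREM) were higher under CAN and 2 (NPAS4 and SIK1) were lower, beside 27.5% of all genes higher and 34.1% lower. Under OA 5 of 8 were higher, NPTX2 being the fifth, and the same 2 were lower, beside 28.1% and 28.8% of all genes. In the direct comparison, 3 of 7 were higher under OA and 1, CREM, was lower, beside 29.5% and 22.3%. Their median log2 differences were 1.41, 0.88 and 0.43 in this order, against -0.16, 0.01 and 0.13 over all genes. CREM entered these counts and medians by the probe that had the higher mean through the CAN array alone. By its other probe CREM was within the threshold under both agents and 1.62-fold higher under OA than under CAN. Left unscaled, the arrays gave 5910 genes higher and 3615 lower under OA in place of 4545 and 4656, and 7629 higher and 2254 lower between the agents in place of 4781 and 3616. The genes were chosen with these differences known, so nothing is read from their counts against the whole array. Among the differences from control, CREM under OA at 1.77-fold lay just past the threshold, and NPTX2 under CAN at 1.48-fold just short of it.

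**Figure D3:**
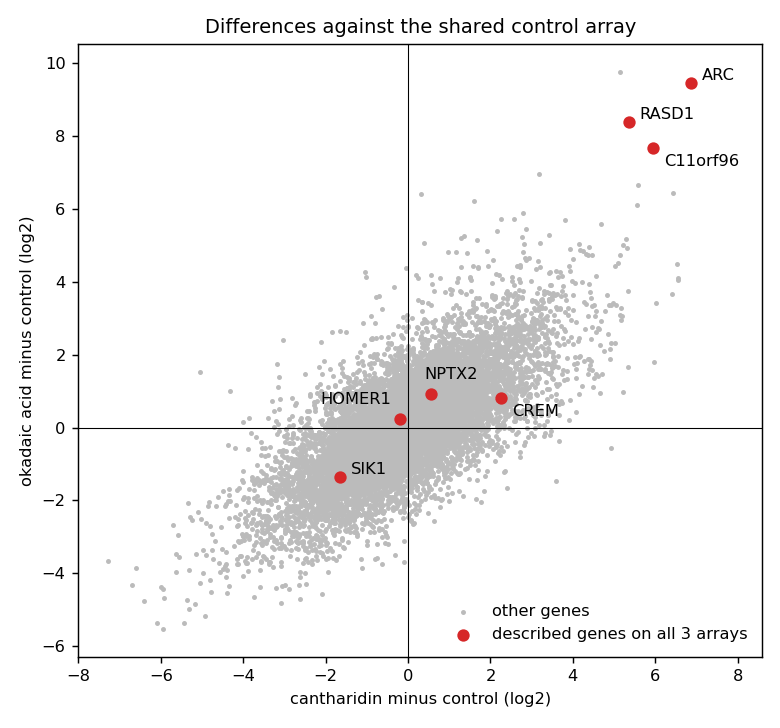
Each grey point is a gene measured on all 3 arrays, with the log2 difference from control under cantharidin on the x axis and under okadaic acid on the y axis; red points are the 7 described genes measured on all 3. ARC, RASD1 and C11orf96 sit in the far upper right and SIK1 in the lower left. CREM, drawn by the probe with the higher mean, lies further along the cantharidin axis. The shared control array alone would tie the axes together.

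The genes with the pattern nearest to ARC and RASD1 were looked up among 14221 genes measured on all 3 arrays, by Euclidean distance over the 2 log2 differences from control. For ARC these were IL23A, the p19 subunit of interleukin 23, at a distance of 1.75, then RASD1 at 1.85, C11orf96 at 1.99, the early growth response factor EGR1 at 3.03 and the chemokine CXCL8 at 3.08. For RASD1 they were C11orf96 at 0.92, IL23A at 1.40, CXCL8 at 1.74, ARC at 1.85 and EGR1 at 2.21. Among the genes searched, RASD1 and C11orf96 were among the 3 nearest to ARC. ARC, RASD1 and C11orf96 were chosen by these same log2 differences, which share the control array, so nothing is read from their closeness. EGR4, below background in control, was outside the search. Its log2 limits were at least 6.55 under CAN and 10.47 under OA, beside 6.86 and 9.45 for ARC. The other genes listed around ARC and RASD1 were an interleukin subunit, a chemokine and a zinc finger factor. IL23A was 35.3-fold higher under CAN and 870-fold under OA, CXCL8 47.6-fold and 101-fold, and EGR1 85.8-fold and 87.3-fold.

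Other genes known to be induced by activity were described from lists drawn up for this purpose, given as counts without a test. The lists too were chosen with earlier results of these data known, so nothing is read from their counts against all genes. Of 20 activity-induced transcription factor genes, 12 of the 19 compared were higher under CAN and 2 lower (27.5% and 34.1% of all genes), with a median log2 difference of 1.19. Under OA 16 of 20 were higher and 0 were lower at 1.5-fold (28.1% and 28.8% of all genes), with a median of 2.16. The zinc finger factor genes EGR2 and EGR4 were below background in control and higher by log2 limits of at least 5.17 and 6.55 under CAN and at least 7.92 and 10.47 under OA. FOS, the partner of JUN in AP-1, was 2.85-fold higher under CAN and 17.7-fold under OA. The nuclear receptor genes NR4A1 and NR4A2 went opposite ways. NR4A1 was at least 1.85-fold lower under CAN and 6.68-fold higher under OA, and NR4A2 was 5.70-fold lower and 2.79-fold higher.

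Of 28 activity-induced effector genes, 27 had a matched probe. Under CAN 13 of 23 compared were higher and 5 lower (median 0.87), beside 27.5% and 34.1% of all genes. Under OA 15 of 22 were higher and 3 lower (median 1.76), beside 28.1% and 28.8%. Genes higher under both agents included PTGS2, the inducible cyclooxygenase (16.1-fold and 12.5-fold), and BTG2, an antiproliferative gene (5.92-fold and 10.2-fold). The clock gene PER2 was higher by log2 differences of 4.27 and 3.46 at its brightest probe, while another of its probes gave log2 differences of -0.75 and 0.54. The clock gene PER1, a known CREB target, was lower under both, by 3.99-fold and 3.00-fold. SCG2, a secretory granule protein, was also lower, by 6.30-fold under CAN, where it was not well above background, and 1.88-fold under OA. CRH, the corticotropin-releasing hormone, was lower by at least 2.40-fold and at least 1.19-fold, of which the last limit is short of the threshold. DUSP1, a phosphatase of MAP kinases, was 2.47-fold lower under CAN and higher by 0.59 on the log2 scale under OA, just past the threshold.

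**Figure D4:**
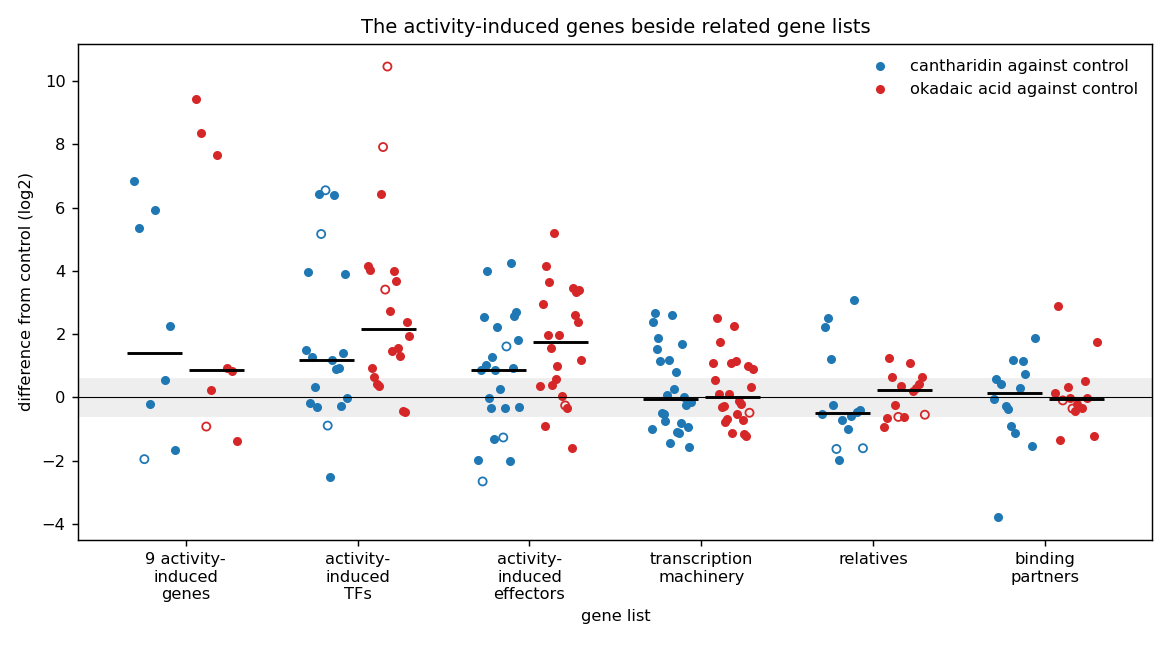
Each point is a gene, with its log2 difference from control on the y axis, under cantharidin (blue) or okadaic acid (red), for the 9 genes and 5 related lists (x axis). Open circles are genes with 1 side below background, drawn at the limit, or at the measured difference where the reading lay above the floor. Black bars are medians with those genes at the drawn values, and the grey band is within 1.5-fold. Both activity-induced lists sit mostly above 0, and the machinery, relatives and binding partners are spread around it.

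Genes of the machinery that drives such transcription were called in both directions. Of 25 genes for CREB, serum response factor and MEF2 factors with their coactivators and kinases, 9 were higher and 8 lower under CAN (median 0.03, or -0.06 with genes at their limits), beside 27.5% and 34.1% of all genes. Under OA 8 of 24 were higher and 7 lower (median 0.01), which is 33.3% and 29.2% beside 28.1% and 28.8%. The acetyltransferase EP300 (6.42-fold and 5.74-fold), the transcription factor MEF2A (6.10-fold and 4.78-fold) and CRTC2, a coactivator that SIK kinases restrain (3.68-fold and 3.38-fold), were higher under both CAN and OA. The actin-regulated coactivator MRTFB was lower by 2.68-fold and 2.16-fold and the catalytic subunit gene of protein kinase A, PRKACA, by 1.74-fold and 1.63-fold. CAMK4, a CREB kinase, was 1.89-fold lower under CAN and at least 1.40-fold lower under OA, a limit short of the threshold. ATF1, a close relative of CREB, was 2.01-fold lower under CAN and 2.14-fold higher under OA, and PRKACB, another catalytic subunit gene of protein kinase A, was 3.23-fold higher and 2.23-fold lower, the latter by 1 of its 2 probes, since the other gave a log2 difference of -0.06.

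Relatives of the 9 genes were called in shares near those of all genes. Of 15 relatives, 4 were higher and 5 lower under CAN (median -0.47), which is 26.7% and 33.3% beside 27.5% and 34.1%. Under OA 4 of 14 were higher and 4 lower (median 0.25), which is 28.6% each beside 28.1% and 28.8%. RASD2, the closest relative of RASD1, was 1.44-fold lower under CAN and 1.92-fold lower under OA. HOMER3 was 5.69-fold and 2.37-fold higher by its brightest probe, while its 3 probes ranged from 0.71 to 2.59 (log2) under CAN and from 0.26, short of the threshold, to 1.32 under OA. HOMER2 was 4.64-fold higher under CAN and 1.57-fold lower under OA. The kinase gene SIK3 was 8.51-fold higher under CAN and 1.23-fold higher under OA, and SIK2 1.49-fold lower and 1.15-fold higher. Among the relatives of NPAS4, NPAS1 was 2.30-fold and 1.56-fold higher, and NPAS3 at least 3.09-fold and at least 1.53-fold lower. The pentraxin receptor NPTXR was 1.63-fold and 1.52-fold lower.

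Of 18 binding partners with a matched probe, 14 were compared under each agent, of which 4 were higher and 4 lower under CAN (28.6% each, beside 27.5% and 34.1% of all genes). Under OA 2 were higher and 4 lower (14.3% and 28.6%, beside 28.1% and 28.8%), 2 of these 4 with limits short of the threshold. The lower ones included SORT1, the sorting receptor of BDNF (13.8-fold and 2.56-fold), ITPR1, a calcium channel that binds HOMER1 (2.88-fold and 2.33-fold), and NOS1AP, the adaptor that binds RASD1 (1.87-fold and at least 1.27-fold, the latter a limit short of the threshold). The neurotrophin receptor NGFR, which also binds BDNF precursors, was 1.48-fold higher under CAN and 7.45-fold higher under OA.

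**Figure D5:**
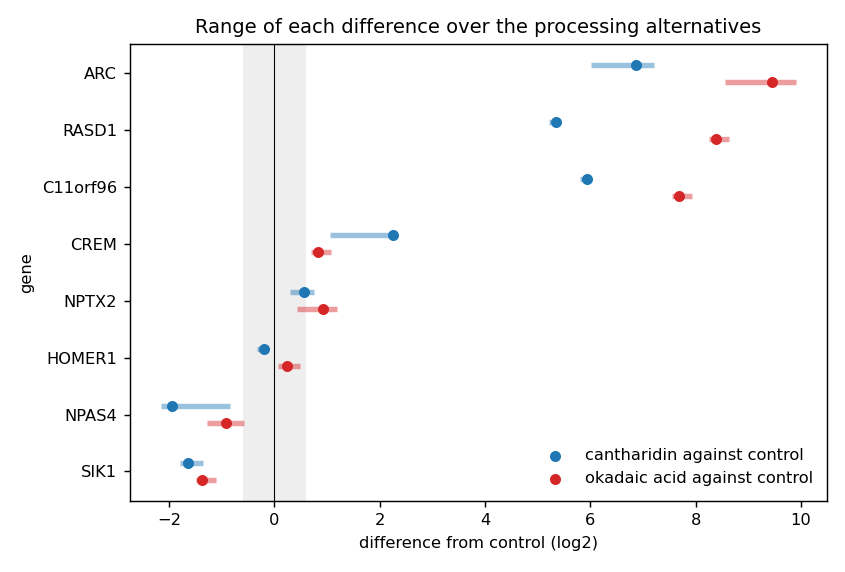
For each gene (y axis), points are the log2 differences from control (x axis) under cantharidin (blue) and okadaic acid (red), and bars span the values over the alternative ways of processing; the grey band is within 1.5-fold. Bars of ARC, RASD1 and C11orf96 stay far to the right and those of SIK1 to the left, while the bars of NPTX2 and of NPAS4 under okadaic acid reach into the band.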

How the data were processed

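RNA of PANC-1 cells, untreated (control) or given CAN or OA, was measured on 3 Agilent 1-colour arrays, 1 per group, grouped by their labels. The deposited scanner files, made with Feature Extraction 11.0.1.1, hold spot intensity that was background-subtracted and detrended within each array, and flags for outlier, saturated and well-above-background spots. A second table deposited by the authors holds log2 values already normalized, whose making is not given in the sources used here, and it served as an alternative. All arrays came from 1 scan, and position on the slide and group cannot be told apart.

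Spots with outlier flags were left out, and the log2 intensity of each probe was averaged and scaled to the 75th percentile of the array. This left 34041 of 34127 transcript probes, of which 24768, 25103 and 23071 were well above background in control, CAN and OA. The number of arrays limits the precision. Accessions were matched without version to RefSeq transcripts (GRCh38.p14), which named 25705 probes. The file annotation is hg19, so only names were taken for probes. Where a gene had several probes the one with the highest mean over the 3 arrays stood for it. Calls and medians used the measured difference. Printed folds are limits where 1 side was below background, unless its reading lay above the floor.

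The genes and lists were chosen with earlier results of these data known. Named genes were all 9, the 5 nearest each to ARC and RASD1, and in each list up to 3 higher and 3 lower under both agents with the largest smaller change, and those going opposite ways. FOS, RASD2, SIK2, SIK3, NGFR and the marker genes were named besides, after their values were seen. The list genes PENK and SHANK3 were not analysed here, and 1 further item is not reported here. Spot noise was the median SD of the 50 probes with repeated spots nearest in intensity, divided by the square root of the number of spots averaged. The calling step was run on simulated data with large changes planted in probes well above background. That run did not check the limits or dim probes. Python 3.11.15 and R 4.3.3 with limma 3.58.1 (normexp) were used. Alternatives covered background correction, scaling, the filter on dim probes, floors, the deposited table, a 2-fold threshold and the probe for a gene.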

Additional observations from a re-analysis of the deposited data

How the results depend on the processing

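Over 11 alternative settings, 10 for NPAS4, no difference of the 8 genes compared changed its sign. Several settings, such as the 2-fold threshold and the median over probes, cannot move the value of a bright gene with 1 probe. None used the other CREM probe alone. That probe gave log2 differences of -0.13 in place of 2.25 under CAN and 0.70 in place of -1.43 between the agents. ARC ranged from 6.01 to 7.21 (log2) under CAN and from 8.56 to 9.90 under OA, RASD1 from 5.21 to 5.43 and from 8.26 to 8.63, and C11orf96 from 5.81 to 6.01 and from 7.56 to 7.93. SIK1 stayed past 1.5-fold under both agents in all 11. With a 2-fold threshold, 3 of the genes in place of 5 were higher under OA and 1 in place of 2 was lower. With normexp correction (offset 50, on the median spot signal, since the files hold no mean), NPAS4 under OA fell short at -0.57, which also left 1 lower, and NPTX2 under OA fell to 0.43. Keeping only probes well above background on all 3 arrays drops NPAS4 by construction and left 1 lower under each agent. Without scaling, 6 in place of 3 were higher under OA than under CAN, and the median of all genes in that comparison was 0.52 in place of 0.13. Taking the median over probes moved CREM to 1.06 under CAN and to -0.37 between the agents, so that 0 in place of 1 were lower under OA. NPTX2 under CAN passed 1.5-fold in 4 of the 11. Over all genes, between the agents 7629 were higher without scaling, 7181 without a filter on dim probes, 3154 with normexp and 2676 at 2-fold, against 4781, and 2254 were lower without scaling and 2198 at 2-fold, against 3616. At 2-fold, 3707 were lower under CAN against 5676 and 3067 under OA against 4656. Where these moves have no cause named, the cause was not tested. No paired analysis was possible because each group holds 1 array, and leaving out a replicate was not possible for the same reason. Signals near background limit ARC in control, NPTX2, HOMER1 and NPAS4.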

Other observations

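Genes with the cyclic AMP response element TGACGTCA in an upstream window of 250 bases were set beside those without it, as a description. Under CAN, 141 of 380 such genes (37.11%) were at least 1.5-fold higher, and 27.05% of the 12649 genes without it. Under OA the shares were 146 of 374 (39.04%) and 27.72% of 12309. The shares at least 1.5-fold lower were 29.47% with it and 34.8% without under CAN, and 24.33% and 29.5% under OA. Genes without a window in the sequences used, ARC and C11orf96 among them, were left out. The median log2 differences were 0.06 against -0.17 under CAN and 0.26 against -0.01 under OA. Between the agents, 27.93% of the genes with the palindrome were higher under OA and 29.79% of those without, while 27.13% and 22.13% were lower. Windows that hold this palindrome may also differ from others in base composition, which was not tested.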
